A study of Mus musculus with 7 samples.

Results

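The genes of mouse chemokines and chemokine receptors were read from RNA-seq counts of liver endothelial cells lacking c-Maf and of control cells. Members were taken by symbol: chemokines named Ccl, Cxcl, Cx3cl1 or Xcl1, receptors named Ccr, Cxcr or Cx3cr1, and the atypical receptors Ackr1 to Ackr4 and Ccrl2. Their counts summed over the 7 libraries had to come to 20 or more. Chemokines with other symbols, such as Pf4 and Ppbp, were not members. Of 60 matching symbols among 52636 genes in the table, 39 met that sum: 22 ligand genes, 12 genes of signalling receptors and 5 of atypical receptors. The other 21 symbols stayed below it, 8 of them with 0 counts in every library.

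Chemokines are small secreted proteins that guide the movement of leukocytes. They act on G protein-coupled receptors, and they are held on endothelial surfaces by heparan sulfate, where passing cells meet them. Atypical receptors bind chemokines without coupling to G proteins and take them up, so they act as scavengers or as presenters. In liver, sinusoidal endothelium both displays chemokines to lymphocytes in the sinusoid and clears them from blood.

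The c-Maf KO group, a knockout of the transcription factor gene Maf, held 4 libraries. They were set against 3 libraries labelled Control and described as wild type in the design text. Both were liver endothelial cells isolated by fluorescence-activated sorting, with polyadenylated RNA sequenced from unstranded or stranded kits, and which kit served which library is not given in the sources used here. The sources used here name neither the deleted part of Maf, a Cre driver, the strain, the age nor the sort markers. Nor do they say that libraries came from separate animals, so each p-value reflects variation among libraries that could be technical.

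Libraries held 24772716 to 32960007 counts. Values below are CPM, a library's counts brought to a common depth with TMM factors (trimmed mean of M-values), a scaling that assumes most genes do not change. Maf itself stood at 28.9 to 159 CPM in KO libraries, against 1664 to 2147 CPM in Control libraries. Summed sinusoidal endothelial markers lay between 10894 and 16807 CPM in KO and between 44138 and 49069 CPM in Control libraries, and 12 of 15 tested members of that list fell and 0 rose. Hepatocyte markers summed to 548 to 2335 CPM in KO and to 417 to 529 CPM in Control libraries, with 12 of 24 members higher. T and NK cell markers summed to 11.3 to 15.2 CPM in KO and to 14.8 to 18.5 CPM in Control libraries, mostly from Lck, while Ncr1 and Eomes were at 0 in every library. Of the 2 tested members of that list 1 fell, Zap70, at a mean of 0.566 CPM in KO and 4.62 CPM in Control libraries. Less RNA of a gene per cell and fewer cells of a type cannot be told apart in such bulk samples.

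Chemokine transcripts were a small and uneven part of these libraries. All 39 genes together took 0.0486% to 0.0679% of the counts in KO and 0.0545% to 0.0634% in Control libraries, and 7 genes held 87.7% of them. Per kilobase of exon, Cxcl10 (53.5 ± 24.3 CPM per kilobase, SD), Cxcl16 (47.4 ± 4.07) and Cxcl1 (25.1 ± 8.35) had the highest levels in the 4 KO libraries. The 3 Control libraries gave another order, with Cxcl16 at the top at 62.8 ± 12.9 CPM per kilobase (SD), followed by Cxcl10 (29.9 ± 9.16), Ackr2 (28.2 ± 1.07), Cxcl9 (21.4 ± 3.70) and Ackr4 (21.3 ± 1.66). The ranges of Cxcl10 and Ackr2 overlapped in Control libraries, as did those of Cxcl9 and Ackr4, so neither pair has a firm order. In KO libraries Ackr4 had rank 12 at 2.54 ± 1.28 CPM per kilobase (SD). Signalling receptor genes were low in both genotypes, and none had a mean above 4.59 CPM in KO or above 2.46 CPM in Control libraries.

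After a filter on low counts 30 of the 39 genes were tested, and 9 were left out by it. Of the 30, 3 rose and 7 fell in the KO by edgeR's quasi-likelihood test at a Benjamini-Hochberg adjusted p under 0.05, and 20 did not pass. Over all 15512 genes tested, 45.2% passed, 23% upward and 22.2% downward. Chemokine genes were thus called in 33.3% of cases, below the share for all genes. Their median log2 fold change was -0.41, beside 0.04 for all genes. The libraries of the genotypes did not overlap in 10 of the 30 genes, 9 of them among the called genes, and in 50.3% of all genes tested. The rises were Cxcl1, Ccr10 and Cxcr4, and the falls were Ackr1, Ackr2, Ackr3, Ackr4, Cxcl9, Cxcl16 and Ccr7.

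The balance of calls moved with the scaling. With library totals in place of TMM, which shifted the median of all genes to 0.31, 5 of the 30 rose and 4 fell, against 41.1% and 12.7% of all genes (53.8% called in all). Ackr2, Cxcl16 and Cxcl9 then did not pass, and Cxcl10 and Ccrl2 did. All 10 called genes kept their sign. With upper-quartile factors 4 rose and 5 fell (48.3% of all genes called), with limma-voom 3 and 6 (43.8%), with DESeq2 3 and 9 (46.5%), and with the lane as covariate 4 and 7 (44.3%). Without a filter the numbers were 4 and 8 (23.5%), and without KO 1 and KO 4 together, a choice made after seeing the data, 2 and 5 (30.2%). The lane number in the labels put KO 3 and Control 3 in lane 4 and the others in lane 5. In lane 5 alone 3 rose and 6 fell (43.6% of all genes called), with the same sign for all 10 genes. Between the 2 libraries of lane 4, too few for a test, 9 of the 10 had the same sign.

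**Figure D1:**
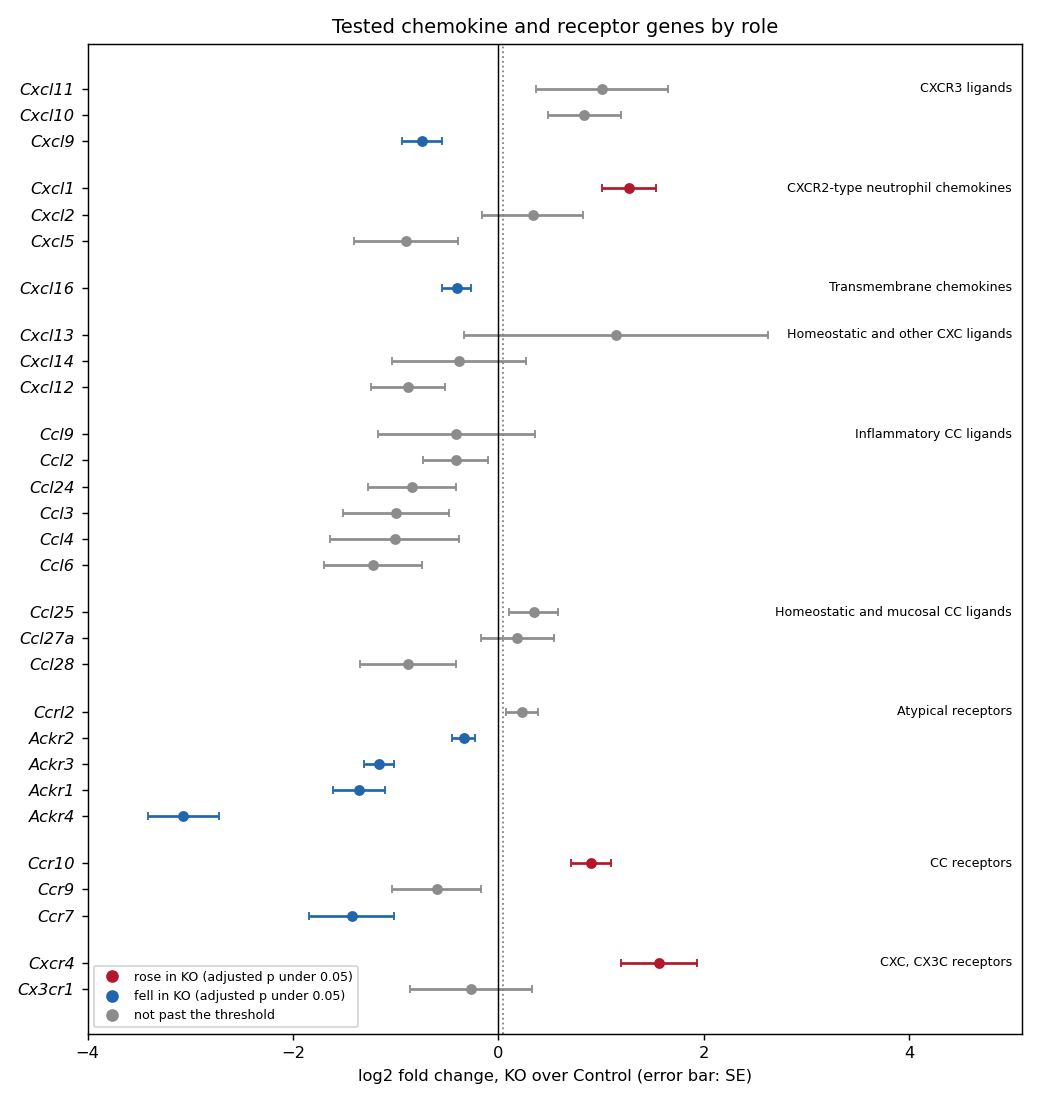
The plot shows the log2 fold change (x axis, KO over Control, with SE bars) of 29 of the 30 tested genes, grouped by role down the page. Red points rose, blue points fell and grey points did not pass an adjusted p of 0.05. The dotted line is the median of all tested genes, 0.04. Ackr4 lies farthest to the left at -3.07, and Cxcr4 is the called gene farthest to the right at 1.56.

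Among the ligands of CXCR3, Cxcl9 fell, while Cxcl10 and Cxcl11 did not pass. Cxcl9, Cxcl10 and Cxcl11 are interferon-induced chemokines that attract activated T and NK cells, and they lie side by side within 44.1 kb on the minus strand of chromosome 5 (GRCm38, 92321347 to 92365485). Cxcl9 stood at 49.0, 42.4, 35.8 and 26.9 CPM in KO libraries 1 to 4, against 74.2, 67.2 and 52.4 CPM in Control libraries 1 to 3. Every KO library lay below every Control library, and Cxcl9 fell 1.68-fold (log2 fold change -0.75, SE 0.19, edgeR adjusted p = 0.0127). With library totals the log2 fold change was -0.48 and the edgeR adjusted p 0.0506.

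Cxcl10 showed no such fall. It stood at 182, 150, 65.4 and 84.7 CPM in KO libraries 1 to 4, against 87.5, 68.5 and 46.2 CPM in Control libraries 1 to 3. KO 1 and KO 2 were far above all other libraries, while KO 3 and KO 4 lay within the Control range. The log2 fold change of 0.84 (SE 0.35) did not pass, at edgeR adjusted p = 0.0804. It passed at 0.0495 with upper-quartile factors, 0.0273 without a filter, 0.0260 with library totals, 0.0377 with the lane as covariate and 0.0233 without KO 3, and reached 0.227 without Control 3. Exons of Cxcl10 share 133 bases with Art3 on the opposite strand, a gene of 51.0 CPM in KO and 63.0 CPM in Control libraries.

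Cxcl11 had 18.8, 11.9, 5.15 and 7.05 CPM in KO libraries 1 to 4, against 1.35, 10.9 and 3.73 CPM in Control libraries 1 to 3. Control 2 reached into the KO range, and the log2 fold change of 1.01 (SE 0.64) did not pass (edgeR adjusted p = 0.226). Without Control 2 it was 2.08, with an edgeR adjusted p of 0.0336. Without Control 1 it was 0.54 (edgeR adjusted p = 0.475), and without KO 1 it was 0.60 (edgeR adjusted p = 0.467). Both GENCODE and RefSeq annotate Cxcl11 on this assembly as a pseudogene (polymorphic or transcribed), so its reads do not show that a protein is made.

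The ratio of Cxcl10 to Cxcl9 counts within a library does not depend on scaling. It was 3.71, 3.53, 1.83 and 3.15 in KO libraries 1 to 4, against 1.18, 1.02 and 0.883 in Control libraries 1 to 3. All 4 KO libraries lay above all Control libraries, with a log2 difference of 1.53 (mean 1.56 ± 0.47 in KO and 0.03 ± 0.21 in Control, SD, n = 4 and 3). The exact two-sided permutation test, which doubles the smaller tail, gave p = 0.0571. That is the smallest this form of the test allows with 4 and 3 libraries. It was 0.0857 adjusted over the 3 ratios examined, which were chosen after values were seen.

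The promoters of Cxcl10 and Cxcl9 are shown because these neighbours differed in their calls. RefSeq windows from 250 bases before to 50 bases after the transcription start were found for 27 members (GRCm38.p6). They were searched on both strands for an interferon-stimulated response element core (ISRE: GAAA, any 2 bases, GAAA) and an NF-kB site (GGG, any 2 bases, TTTCC). Also searched were the letters TGCTGA of the Maf recognition element (MARE), called the MARE core here, and an AP-1 site (TGANTCA), which can overlap them. Of 32851 windows of all genes, 3.44% held the ISRE core, 1.63% the NF-kB site, 19.5% the MARE core and 7.81% the AP-1 site. In the sequences below, given 5′ to 3′ on the minus strand of the chromosome, capitals mark ISRE, NF-kB or MARE matches.
Cxcl10, chr5:92348840-92349139: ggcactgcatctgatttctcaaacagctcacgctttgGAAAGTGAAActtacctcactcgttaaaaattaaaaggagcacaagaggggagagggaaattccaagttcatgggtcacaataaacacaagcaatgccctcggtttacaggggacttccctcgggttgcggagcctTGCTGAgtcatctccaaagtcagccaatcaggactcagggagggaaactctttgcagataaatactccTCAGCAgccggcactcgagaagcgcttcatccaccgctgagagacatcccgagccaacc
Cxcl9, chr5:92328030-92328329: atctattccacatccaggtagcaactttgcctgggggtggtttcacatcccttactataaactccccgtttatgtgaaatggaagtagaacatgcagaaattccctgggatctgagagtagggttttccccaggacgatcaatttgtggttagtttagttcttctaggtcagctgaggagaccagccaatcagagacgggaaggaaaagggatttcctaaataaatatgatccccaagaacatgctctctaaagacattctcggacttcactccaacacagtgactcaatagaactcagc

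The Cxcl10 window held an ISRE core at -213 to -204 from the start and MARE cores at -77 to -72 and -9 to -4, counting the start base as 0. An AP-1 site at -74 to -68 overlaps the farther MARE core. The Cxcl9 window matched neither the ISRE, the NF-kB nor the MARE letters, and held an AP-1 site at 31 to 37. Only exact matches to the letters were counted. For example, gggaaattcc and ggggacttcc in the Cxcl10 window and gggttttccc in the Cxcl9 window each differ from the NF-kB letters at a single base. Matches are descriptions of sequence and no binding was measured.

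**Figure D2:**
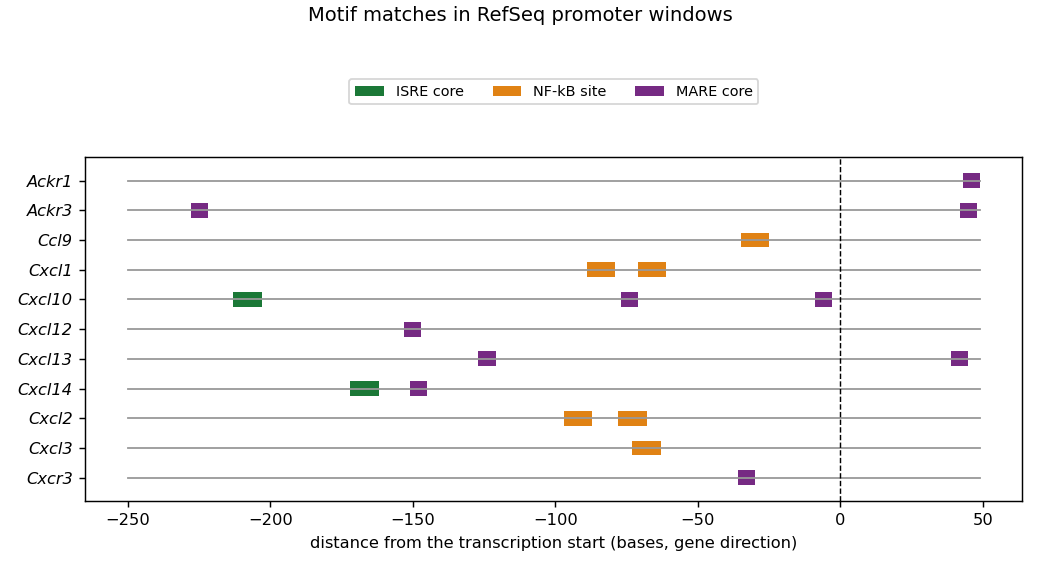
The map shows motif matches in promoter windows of the 11 members that had an ISRE, NF-kB or MARE core match, against distance from the transcription start in bases (x axis, 5′ to 3′ along the gene, dashed line at the start). Green boxes are ISRE cores, orange boxes NF-kB sites and purple boxes MARE cores. Exact NF-kB matches of Cxcl1, Cxcl2 and Cxcl3 sit between -97 and -62, and Cxcl10 carries an ISRE core and 2 MARE cores. Near matches to the letters are not drawn.

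Among the chemokines that bind CXCR2 and attract neutrophils, Cxcl1 rose and its neighbours did not pass. The genes Cxcl5, Cxcl3, Cxcl1 and Cxcl2 lie within 147 kb on the plus strand of chromosome 5 (90759360 to 90905938). Cxcl1 stood at 60.1, 60.2, 28.8 and 39.2 CPM in KO libraries 1 to 4, against 18.02, 23.9 and 16.7 CPM in Control libraries 1 to 3. No KO library reached down to the Control range, and Cxcl1 rose 2.41-fold (log2 fold change 1.27, SE 0.26, edgeR adjusted p = 0.00432). It passed under all 19 other settings.

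Cxcl2 had 13.1, 9.54, 4.42 and 6.11 CPM in KO libraries 1 to 4, against 2.40, 10.9 and 6.40 CPM in Control libraries 1 to 3. The genotypes overlapped widely (log2 fold change 0.33, SE 0.49, edgeR adjusted p = 0.603), and the sign turned to -0.07 without Control 1. The ratio of Cxcl1 to Cxcl2 counts was 4.602, 6.31, 6.51 and 6.42 in KO libraries 1 to 4, against 7.50, 2.19 and 2.61 in Control libraries 1 to 3. Control 1 lay above every KO library, and the exact two-sided permutation test gave p = 0.286.

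Cxcl5 lay between 0.262 and 0.354 CPM in KO and between 0.182 and 1.04 CPM in Control libraries. Its log2 fold change was -0.90 (SE 0.51, edgeR adjusted p = 0.174), and -1.35 with an edgeR adjusted p of 0.0230 without Control 1. With 1 library left out it ranged from -1.35 to -0.27, at edgeR adjusted p-values of 0.0230 to 0.722. Cxcl3 had 19 counts over the KO and 8 over the Control libraries and was not tested.

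The promoters of Cxcl1, Cxcl2 and Cxcl3 are given on the plus strand, with capitals at NF-kB matches, because they share these letters while only Cxcl1 passed the test.
Cxcl1, chr5:90890995-90891294: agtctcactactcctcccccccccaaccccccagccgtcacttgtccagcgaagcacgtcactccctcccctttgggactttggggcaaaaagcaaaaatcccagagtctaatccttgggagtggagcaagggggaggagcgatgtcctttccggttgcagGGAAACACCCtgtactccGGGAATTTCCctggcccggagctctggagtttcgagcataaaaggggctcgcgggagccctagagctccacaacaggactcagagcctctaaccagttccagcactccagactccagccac
Cxcl2, chr5:90903649-90903948: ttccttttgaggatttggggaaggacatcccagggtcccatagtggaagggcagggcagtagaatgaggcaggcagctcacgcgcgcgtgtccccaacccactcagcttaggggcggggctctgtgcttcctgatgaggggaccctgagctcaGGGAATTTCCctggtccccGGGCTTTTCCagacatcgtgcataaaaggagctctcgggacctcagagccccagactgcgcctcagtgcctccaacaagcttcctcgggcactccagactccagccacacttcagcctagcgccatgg
Cxcl3, chr5:90785851-90786150: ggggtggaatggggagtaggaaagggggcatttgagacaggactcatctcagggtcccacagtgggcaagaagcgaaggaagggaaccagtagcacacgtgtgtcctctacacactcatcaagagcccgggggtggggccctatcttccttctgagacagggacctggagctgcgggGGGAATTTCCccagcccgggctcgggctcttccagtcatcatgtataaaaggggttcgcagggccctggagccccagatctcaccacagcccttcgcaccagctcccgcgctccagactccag

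Cxcl1 and Cxcl2 each held 2 NF-kB matches and Cxcl3 held 1, all within 97 bases before the start. Of the 32 windows of members, 4 held an exact NF-kB match (12.5%), the fourth being that of Ccl9.

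Dissociation and immediate-early genes were higher in the KO as well. That list had 10 of 18 members higher and 0 lower, and its median stood at 250%, 215%, 140% and 165% of the Control mean in KO libraries 1 to 4, against 112%, 102% and 86% in Control libraries 1 to 3. KO 1 and KO 2 were highest in that list, and among KO libraries also in Cxcl1, Cxcl2, Cxcl10 and Cxcl11. The part of this list in the values of the 4 ligands was not tested.

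**Figure D3:**
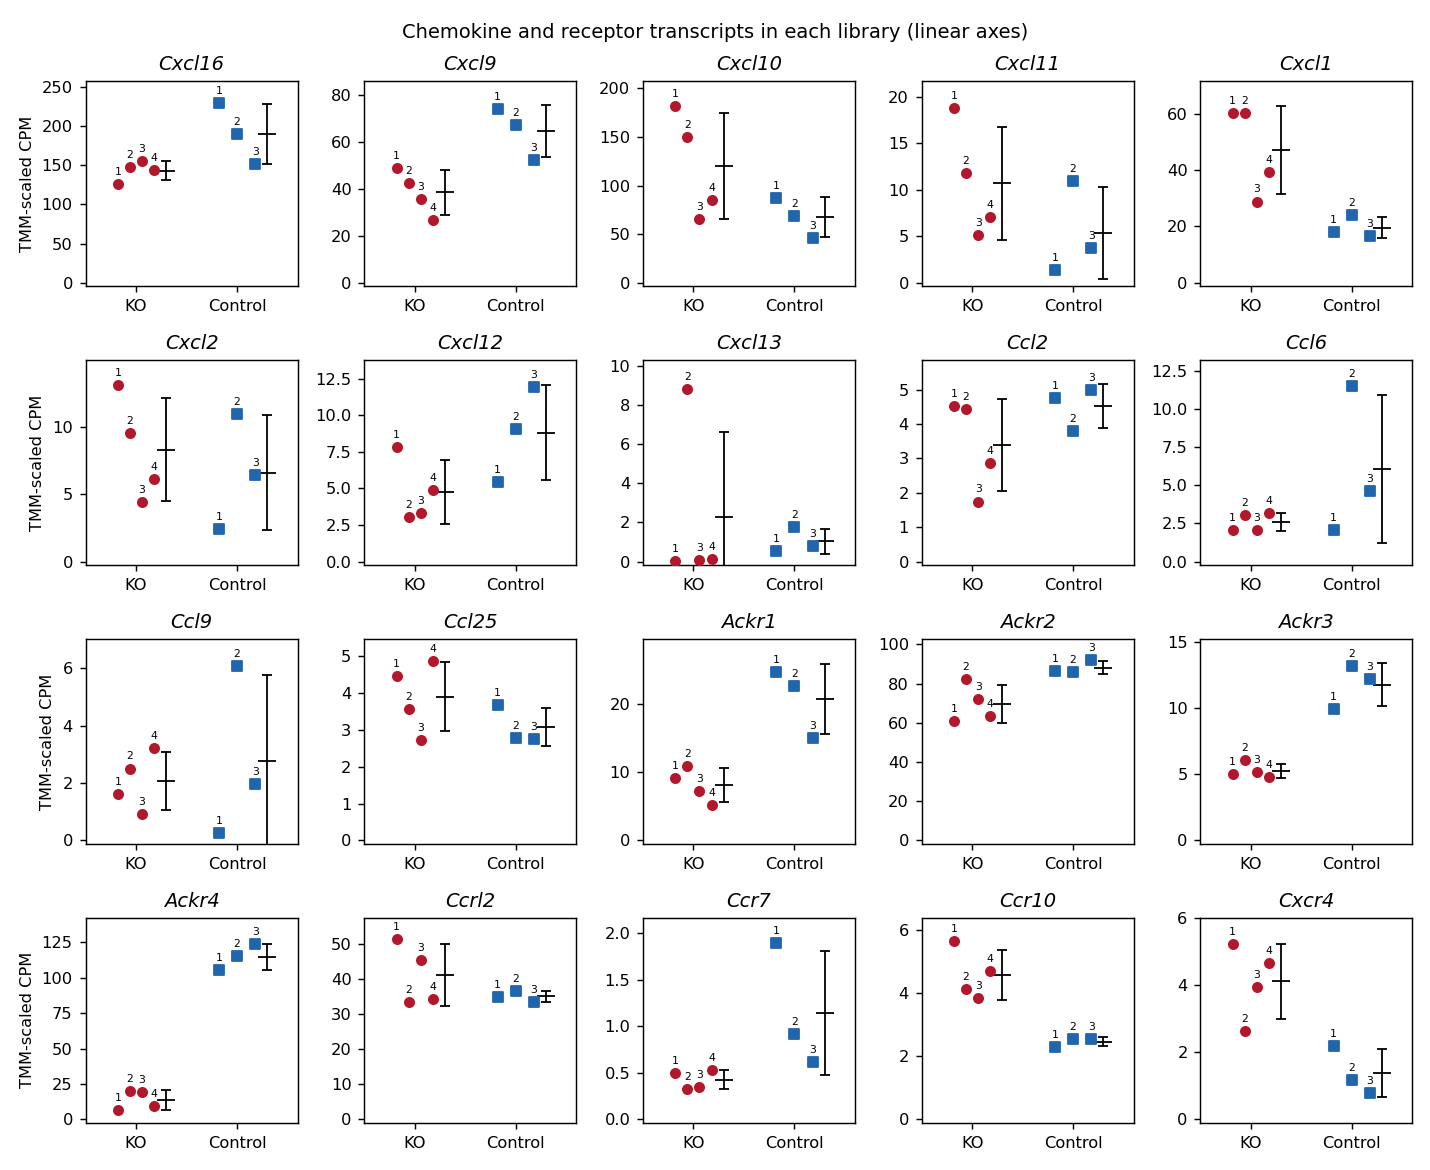
Each panel shows TMM-scaled CPM on a linear y axis for a ligand or receptor gene, with KO libraries as red circles left of Control libraries as blue squares. Small digits give the library number, and black bars the mean and SD (bars that run below 0 are not drawn further). Ackr4, Ackr3 and Ackr1 show no overlap between genotypes, KO 2 stands alone in Cxcl13, and Control 2 stands above the rest in Ccl6 and Ccl9.

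Cxcl16, a transmembrane chemokine whose receptor CXCR6 marks natural killer T cells that patrol mouse sinusoids, was the ligand with the most counts. It stood at 126, 148, 155 and 144 CPM in KO libraries 1 to 4, against 229, 189 and 151 CPM in Control libraries 1 to 3. KO 3 lay above Control 3, so the genotypes overlapped. Cxcl16 fell 1.33-fold (log2 fold change -0.41, SE 0.14, edgeR adjusted p = 0.0408), a call lost under 11 of 19 other settings. The edgeR adjusted p was 0.0865 without KO 1, 0.0685 without KO 2, 0.0820 without KO 4, 0.161 without Control 1 and 0.102 without Control 2, and the log2 difference between the lane 4 libraries was 0.04. Its exons share 552 bases with Zmynd15 on the opposite strand, which rose (455 CPM in KO and 335 CPM in Control libraries, log2 fold change 0.44, edgeR adjusted p = 0.0229). Without strand-aware counting the reads of these genes cannot be told apart in the shared bases.

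Cxcl12, the ligand of CXCR4 and Ackr3 that retains haematopoietic cells, stood at 7.82, 3.06, 3.29 and 4.93 CPM in KO libraries 1 to 4, against 5.42, 9.08 and 11.9 CPM in Control libraries 1 to 3. KO 1 lay inside the Control range. The log2 fold change of -0.88 (SE 0.36) did not pass (edgeR adjusted p = 0.0721). It passed with DESeq2 (adjusted p = 0.0278), and with edgeR at 0.0378 without a filter, 0.0127 without KO 1, 0.0360 without Control 1 and 0.0145 without KO 1 and KO 4 together. In lane 5 alone it was -0.50 (edgeR adjusted p = 0.343). It was -0.61 both without Control 3 (edgeR adjusted p = 0.241) and with library totals (edgeR adjusted p = 0.193). Stellate cell and fibroblast markers, cells known to express Cxcl12, summed to 140 to 255 CPM in KO and to 305, 376 and 484 CPM in Control libraries 1 to 3, with 8 of 14 members lower. Their part in the Cxcl12 values was not tested.

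Cxcl13, which draws B cells through CXCR5, was set apart by a single library. It had 1, 271, 3 and 5 counts in KO libraries 1 to 4, against 15, 42 and 18 counts in Control libraries 1 to 3. Apart from KO 2, every KO library lay below every Control library. The log2 fold change was 1.14 with all libraries (SE 1.48, edgeR adjusted p = 0.551) and -3.41 without KO 2 (edgeR adjusted p = 0.00360). KO 2 also held 34.7 CPM of Marco, a scavenger receptor of macrophages, against 0.669 to 1.17 CPM in the other KO libraries and 1.20 to 4.37 CPM in Control libraries. The 17 Kupffer cell and macrophage markers as a list were not above Control libraries in KO 2. They summed to 381 CPM there, the highest of the KO libraries, against 649 to 902 CPM in Control libraries. Their median in KO 2 was 89.2% of the Control mean, against 60.3%, 147% and 90.6% in Control libraries 1 to 3. Whether the Cxcl13 and Marco transcripts came from the same cells was not tested. Cxcl14, an epithelial chemokine, lay between 0.0291 and 0.531 CPM in KO and between 0.328 and 0.541 CPM in Control libraries (edgeR adjusted p = 0.656).

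None of the 6 tested inflammatory CC ligands passed. Ccl2, the main monocyte attractant through CCR2, stood at 4.53, 4.43, 1.75 and 2.86 CPM in KO libraries 1 to 4, against 4.77, 3.79 and 5.0 CPM in Control libraries 1 to 3 (log2 fold change -0.42, SE 0.31, edgeR adjusted p = 0.302). Ccl6 and Ccl9, ligands of CCR1 made by mouse macrophages and encoded side by side on chromosome 11, were both highest in Control 2. Ccl6 had 2.09, 3.03, 2.10 and 3.19 CPM in KO libraries 1 to 4, against 2.08, 11.5 and 4.65 CPM in Control libraries 1 to 3. Its log2 fold change of -1.22 (SE 0.48) did not pass in edgeR (adjusted p = 0.0634). Ccl6 passed in DESeq2 (adjusted p = 0.0192), without a filter (edgeR adjusted p = 0.0281) and without Control 1 (edgeR adjusted p = 0.00851). Without Control 2 its log2 fold change was -0.37 (edgeR adjusted p = 0.452), and limma-voom gave -0.87 (adjusted p = 0.191).

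Ccl9 had 1.63, 2.51, 0.931 and 3.22 CPM in KO libraries 1 to 4, against 0.255, 6.08 and 1.97 CPM in Control libraries 1 to 3. Its direction rested on Control 2, with a log2 fold change of -0.41 with that library and 0.91 without it (edgeR adjusted p = 0.683 and 0.370). Control 2 was also highest in Lyz2 (107 CPM, against 15.4 to 52.3 CPM in KO and 8.12 and 24.3 CPM in the other Control libraries). Kupffer cell and macrophage markers summed to 162 to 381 CPM in KO and to 649 to 902 CPM in Control libraries, with 4 of 17 members lower and 1 higher. Much of these sums was Slc40a1 alone, at a mean of 104 CPM in KO and 495 CPM in Control libraries. The part of macrophage RNA in Ccl6 and Ccl9 was not tested.

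Ccl3 and Ccl4, macrophage inflammatory proteins, and Ccl24, a ligand of the eosinophil receptor CCR3, had log2 fold changes of -0.996, -1.01 and -0.84. Their edgeR adjusted p-values were 0.145, 0.216 and 0.136. Their highest value in any library was 1.18 CPM, of Ccl4 in Control 3. Homeostatic CC ligands did not pass either. Ccl25, which guides cells to thymus and gut through CCR9, lay between 2.74 and 4.87 CPM in KO and between 2.76 and 3.68 CPM in Control libraries (edgeR adjusted p = 0.265). The ligands of CCR10 were low, Ccl28 at 0.540 ± 0.247 CPM in KO and 1.00 ± 0.589 CPM in Control libraries, and Ccl27a at 0.627 ± 0.168 and 0.549 ± 0.199 CPM (SD, n = 4 and 3).

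Of the 5 atypical receptors 4 fell, 0 rose and 1 did not pass, with a median log2 fold change of -1.17, beside 22.2% of all genes lower. With library totals 3 fell, Ackr2 did not pass and Ccrl2 rose, beside 12.7% of all genes lower and 41.1% higher. Lymphatic endothelial markers, of a vessel type known for Ackr2 and Ackr4, summed to 844 to 1645 CPM in KO and to 4036 to 5004 CPM in Control libraries, with 5 of 9 tested members lower and 1 higher. Most of those sums came from Flt4 (mean 975 CPM in KO and 3483 CPM in Control libraries) and Lyve1 (215 and 873 CPM). Both genes are also on the sinusoidal list, so these sums largely repeat part of that list. Pan-endothelial markers summed to 14112 to 18852 CPM in KO and to 22297 to 24645 CPM in Control libraries, with 7 of 13 members lower, Flt1, Cldn5, Erg and Tek among them, and 1 higher. The part of these lists and of the sinusoidal markers above in the receptor values was not tested. Ackr4, the scavenger of Ccl19, Ccl21 and Ccl25, changed most. The gene lies on the minus strand of chromosome 9 (GRCm38, 104084157 to 104126933). It stood at 6.30, 20.1, 19.0 and 9.26 CPM in KO libraries 1 to 4, against 106, 115 and 124 CPM in Control libraries 1 to 3. Even the highest KO library lay far below the lowest Control library. Ackr4 fell 8.39-fold (log2 fold change -3.07, SE 0.35, edgeR adjusted p = 0.000175), with log2 fold changes of -3.27 in lane 5 alone and -2.70 between the lane 4 libraries. KO 1 and KO 4, the lowest in Ackr4, were also the lowest in Maf (28.9 and 37.7 CPM, against 159 and 124 CPM in KO 2 and KO 3). They were the highest in hepatocyte markers, at 2335 and 1108 CPM, against 548 and 683 CPM in KO 2 and KO 3. Exons of Ackr4 share 479 bases with Acad11 on the opposite strand, which had 17.5 CPM in KO and 20.1 CPM in Control libraries (edgeR adjusted p = 0.251).

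Ackr3, which scavenges Cxcl12 and Cxcl11, stood at 5.02, 6.06, 5.15 and 4.78 CPM in KO libraries 1 to 4, against 9.98, 13.2 and 12.2 CPM in Control libraries 1 to 3. The KO values were tight and all below the Control values. Ackr3 fell 2.24-fold (log2 fold change -1.17, SE 0.15, edgeR adjusted p = 0.000332). Its promoter window held a MARE core at -228 to -223 and another at 42 to 47. The Ackr1 window held 1 at 43 to 48, and those letters were not in the windows of Ackr4, Ackr2 and Ccrl2. Among windows of members 21.9% held the MARE core, near the 19.5% of all windows.

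Ackr1, the Duffy antigen receptor of venular endothelium that binds many inflammatory chemokines, stood at 9.09, 10.9, 7.28 and 5.13 CPM in KO libraries 1 to 4, against 24.5, 22.6 and 14.9 CPM in Control libraries 1 to 3. It fell 2.56-fold (log2 fold change -1.36, SE 0.25, edgeR adjusted p = 0.00254). The reading is uncertain in part, because 361 exonic bases are shared on the same strand with Cadm3, which fell as well (3.67 CPM in KO and 7.09 CPM in Control libraries, log2 fold change -0.95, edgeR adjusted p = 0.00706). Markers of large veins and arteries had 7 of 14 members higher and 3 lower, with sums of 1987 to 2421 CPM in KO and 2414 to 2794 CPM in Control libraries. Ackr1, Ackr3 and Ackr4 passed under all 19 other settings.

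Ackr2, the scavenger of inflammatory CC chemokines, was abundant in both genotypes. It stood at 60.9, 82.2, 71.9 and 63.4 CPM in KO libraries 1 to 4, against 86.2, 86.1 and 91.9 CPM in Control libraries 1 to 3. The gap between the highest KO and the lowest Control library was small. Ackr2 fell 1.26-fold (log2 fold change -0.34, SE 0.11, edgeR adjusted p = 0.0316). The call was lost under 12 of 19 other settings, among them in lane 5 alone (edgeR adjusted p = 0.0513), with library totals (0.519), and without KO 1 (0.0635), KO 4 (0.0810), Control 1 (0.0638), Control 2 (0.0765) or Control 3 (0.0967).

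Ccrl2, which binds chemerin and presents it to cells bearing CMKLR1, stood at 51.3, 33.4, 45.5 and 34.1 CPM in KO libraries 1 to 4, against 34.9, 36.6 and 33.4 CPM in Control libraries 1 to 3. KO 1 and KO 3 lay above the Control range and the others near it (log2 fold change 0.23, SE 0.15, edgeR adjusted p = 0.244). With library totals it passed (log2 fold change 0.50, edgeR adjusted p = 0.0211).

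Of the 12 signalling receptors 6 were tested, of which 2 rose and 1 fell, beside 23% of all genes higher and 22.2% lower. Cxcr4, the receptor of Cxcl12, stood at 5.23, 2.64, 3.93 and 4.66 CPM in KO libraries 1 to 4, against 2.18, 1.17 and 0.789 CPM in Control libraries 1 to 3. All KO libraries were above all Control libraries. Cxcr4 rose 2.95-fold (log2 fold change 1.56, SE 0.37, edgeR adjusted p = 0.00806). Without KO 1 and KO 4 together, the libraries with the most hepatocyte transcripts, its log2 fold change was 1.24 (edgeR adjusted p = 0.0648). Platelet and megakaryocyte markers had 6 of 11 tested members higher and 2 lower, with a median of 283%, 206%, 198% and 405% of the Control mean in KO libraries 1 to 4, against 92.8%, 102% and 105% in Control libraries 1 to 3. Their sums were 280 to 377 CPM in KO and 411 to 482 CPM in Control libraries, of which Clec1b alone held a mean of 125 and 327 CPM. The part of this list in the Cxcr4 values was not tested.

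Cxcr4 and Ackr3 bind the same ligand and moved in opposite directions. The ratio of Cxcr4 to Ackr3 counts was 1.04, 0.435, 0.763 and 0.975 in KO libraries 1 to 4, against 0.219, 0.0883 and 0.0647 in Control libraries 1 to 3. KO libraries were all higher, by 2.82 on the log2 scale (mean -0.39 ± 0.57 in KO and -3.21 ± 0.91 in Control, SD, n = 4 and 3). The exact two-sided permutation test gave p = 0.0571, again the smallest this form of the test allows, and 0.0857 adjusted over the 3 ratios. Cxcr4 lay higher and Ackr3 lower in every KO library than in every Control library. The ratios therefore had to separate, and this test adds nothing to the calls of Cxcr4 and Ackr3.

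**Figure D4:**
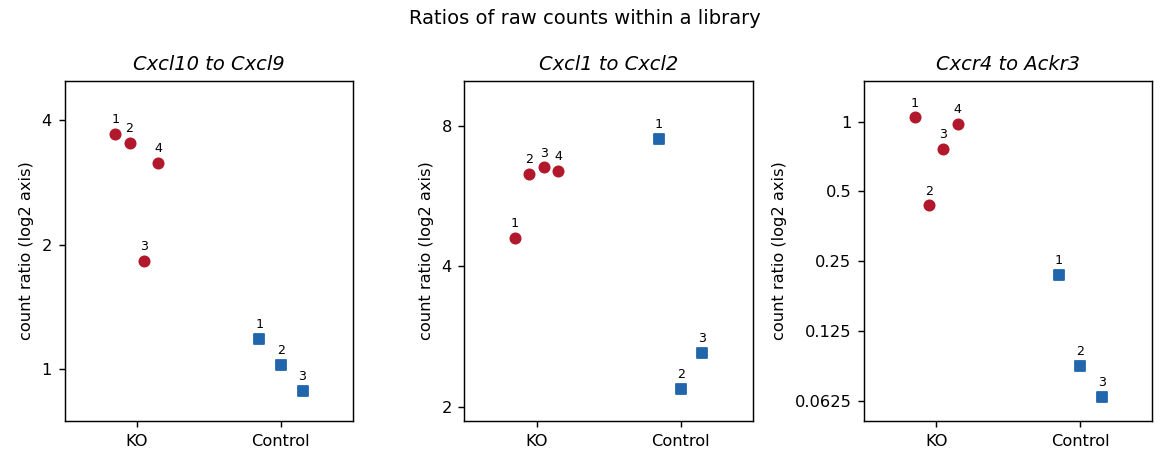
Each panel plots a ratio of raw counts within a library (log2 y axis) for Cxcl10 to Cxcl9, Cxcl1 to Cxcl2 and Cxcr4 to Ackr3, with KO libraries as red circles left of Control libraries as blue squares and digits for the library number. KO libraries lie at 1.83 to 3.71 for Cxcl10 to Cxcl9, above Control libraries at 0.883 to 1.18. In the middle panel Control 1, at 7.50, lies above every KO library.

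Ccr10, a receptor of skin-homing and mucosal lymphocytes, stood at 5.66, 4.13, 3.84 and 4.72 CPM in KO libraries 1 to 4, against 2.29, 2.54 and 2.54 CPM in Control libraries 1 to 3. Control libraries were nearly level and all below the KO libraries. Ccr10 rose 1.86-fold (log2 fold change 0.90, SE 0.19, edgeR adjusted p = 0.00525) and passed under all 19 other settings.

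Ccr7, which binds Ccl19 and Ccl21 on dendritic and T cells, had 14, 10, 12 and 18 counts in KO libraries 1 to 4, against 52, 22 and 14 counts in Control libraries 1 to 3. Scaled to depth, all KO libraries (0.326 to 0.531 CPM) lay below all Control libraries (0.614 to 1.89 CPM), with Control 1 highest. Ccr7 fell 2.69-fold (log2 fold change -1.43, SE 0.41, edgeR adjusted p = 0.0200), and without Control 1 its log2 fold change of -0.85 did not pass (edgeR adjusted p = 0.1098). Dendritic cell markers summed to 662 to 709 CPM in KO and to 887 to 1050 CPM in Control libraries, with 3 of 7 tested members lower and 1 higher, and their part in the Ccr7 values was not tested. Its ligand genes Ccl19, Ccl21a and Ccl21b had 1, 0 and 0 counts over all libraries.

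Ccr9 and Cx3cr1, receptors of leukocytes, had 32 and 36 counts over the KO and 29 and 25 counts over the Control libraries. Their edgeR adjusted p-values were 0.279 and 0.732. The 9 genes left out by the filter had 0 to 17 counts in any library: Ccl5, Ccl7, Cxcl3, Ccr1, Ccr2, Cxcr2, Cxcr3, Cxcr5 and Cxcr6. Without the filter none of the 9 passed in edgeR and 1 had an unadjusted p under 0.05, beside 32.4% of all genes. That gene was Ccl5, an attractant of T cells and monocytes, with 4, 9, 17 and 7 counts in KO libraries 1 to 4, against 2, 3 and 1 counts in Control libraries 1 to 3 (edgeR adjusted p = 0.0643).

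The sum of 20 counts that defines the list left Cxcr6 and Ccl7 just inside it, with 25 counts each, and Cx3cl1 and Ccr3 just outside, with 19 and 17 counts. Cx3cl1, a transmembrane ligand typical of inflamed endothelium, had 8 counts over the KO and 11 over the Control libraries.

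Other genes of the chemokine pathway, taken from lists chosen with earlier results of these data known, changed in both directions. Their counts stand beside 23% of all genes higher and 22.2% lower, and nothing particular to a list was tested. Each gene named as risen or fallen had an edgeR adjusted p of 0.00392 or less. Among 9 tested genes for chemokines or chemokine-binding receptors outside the naming pattern, 3 rose and 3 fell, with a median log2 fold change of 0.65. Gpr182, an atypical receptor of sinusoidal and lymphatic endothelium that takes up several chemokines, was by far the most abundant at 1057 ± 249 CPM in KO and 2555 ± 189 CPM in Control libraries (SD, n = 4 and 3). It fell 2.42-fold (log2 fold change -1.27, SE 0.19, edgeR adjusted p = 0.000799). Cd74, a receptor component for the cytokine Mif, fell 2.18-fold, while Mif rose 2.46-fold and the chemerin receptor gene Cmklr1 2.06-fold.

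Among genes whose products modify chemokines, the protease Dpp4 was abundant and fell most. Of 18 tested proteases and sulfation enzymes 8 fell and 4 rose, with a median log2 fold change of -0.45. With library totals 5 fell and 5 rose, beside 12.7% of all genes lower and 41.1% higher under that scaling. Dpp4 is the dipeptidyl peptidase that trims the amino terminus of Cxcl9, Cxcl10, Cxcl11 and Cxcl12. It stood at 104, 230, 240 and 132 CPM in KO libraries 1 to 4, against 1278, 1409 and 1384 CPM in Control libraries 1 to 3. The genotypes were far apart, and Dpp4 fell 7.69-fold (log2 fold change -2.94, SE 0.28, edgeR adjusted p = 7.81e-05). The membrane metalloproteinase gene Mmp14 fell 4.63-fold and the urokinase gene Plau 3.11-fold. Carboxypeptidase M, Cpm, rose 12.4-fold, reaching a mean of 6.60 CPM in KO libraries, against 0.530 CPM in Control libraries.

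Of 29 tested genes for heparan sulfate synthesis and core proteins 13 fell and 3 rose, with a median log2 fold change of -0.29. The core protein genes Gpc1, Gpc4 and Sdc3 fell 17.7-, 4.01- and 3.42-fold, and the heparanase gene Hpse 2.71-fold. With library totals 8 rose and 9 fell, beside 41.1% of all genes higher and 12.7% lower under that scaling. With upper-quartile factors 6 rose and 11 fell, beside 4749 and 2738 of all 15512 genes.

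Of 38 tested signalling genes below the receptors 9 rose and 9 fell, near the shares of all genes (23% higher and 22.2% lower), and their median log2 fold change was -0.19. The inhibitory G protein gene Gnai1 rose 3.24-fold and the regulators Rgs2 and Rgs19 3.64- and 1.83-fold, while the arrestin gene Arrb1 fell 2.17-fold. With library totals 16 rose, near the 41.1% of all genes higher under that scaling. Of 29 tested NF-kB and interferon factors and cytokines 7 rose and 6 fell, again near the shares of all genes, with a median of -0.08. Tnf, an inducer of NF-kB, stood at 101, 45.3, 20.5 and 40.1 CPM in KO libraries 1 to 4, against 5.90, 5.29 and 4.34 CPM in Control libraries 1 to 3, and rose 9.96-fold (log2 fold change 3.32, SE 0.51, edgeR adjusted p = 0.000876). Atf3, also on the dissociation list, rose 6.62-fold, and the transcription factor genes Cebpb and Irf8 fell 2.27- and 2.11-fold. With library totals 13 of this list rose, also near 41.1%.

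**Figure D5:**
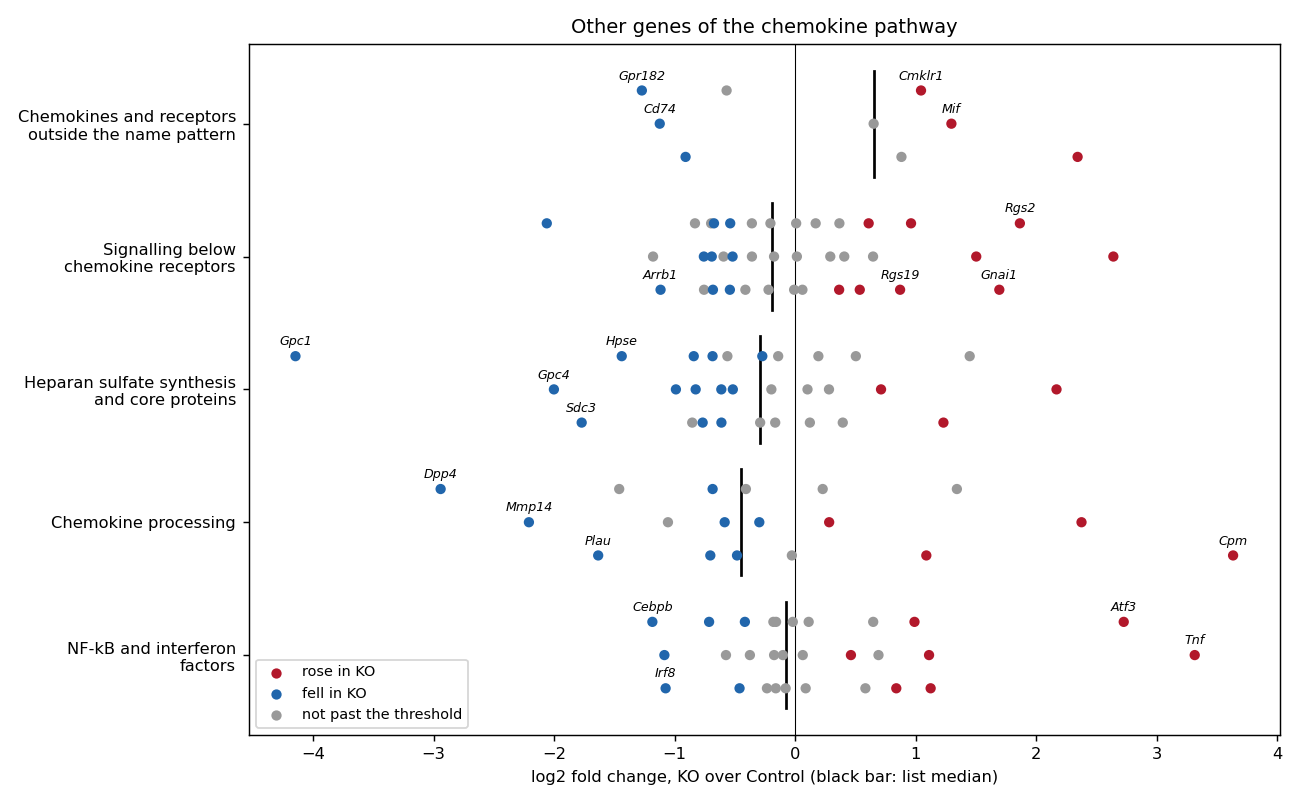
Each point is a tested gene of the lists named at the left, placed by its log2 fold change (x axis, KO over Control). Red points rose, blue points fell and grey points did not pass an adjusted p of 0.05, and black bars are list medians. Gpc1 and Dpp4 are the farthest left, at -4.15 and -2.94, and Cpm and Tnf the farthest right, at 3.63 and 3.32.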

How the data were processed

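The authors deposited a table of raw read counts per gene for the 7 libraries, and per the submitters' processing notes FastQC 0.11.5, STAR 2.7.6a and GRCm38 were used; the sources used here name neither the counting tool nor its strand setting. From these counts, edgeR 4.0.16 (R 4.3.3) was fitted to all genes of both groups with TMM factors, filterByExpr (minimum count 10, minimum total 15) and the quasi-likelihood F-test, with Benjamini-Hochberg adjustment over 15512 genes at 0.05. The 233 rows without a symbol could not match the symbol rule. The script was tested on simulated data. Alternatives were other scalings, filters, DESeq2 1.42.0, limma-voom 3.58.1, lane, replicate block and each library left out. Ratios within a library used exact permutation tests. Members, lists and rules were chosen with earlier results of these data known. Of the tested members, 1 is counted but not reported here. In each pathway list, up to 4 genes of smallest p among those called were named. Exon lengths and overlaps came from GENCODE vM21, promoters from RefSeq GRCm38.p6. A value of 3 counts equals 0.0873 to 0.132 CPM. No 2 libraries were duplicates (chi-square per degree of freedom 13.2 to 96.1).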

Additional observations from a re-analysis of the deposited data

Results flagged for a closer look

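Of the 39 genes, 2 had a KO library far from the other 3, by the gap to the nearest library over the whole range of the 4 KO libraries. Chance flags about 1 in 20 groups. For Cxcl13 this gap was 0.987, set by KO 2 at 8.82 CPM. For Ccl3 it was 0.903, set by KO 4 at 0.0885 CPM, which is 3 counts.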

How the results depend on the processing

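Ackr1, Ackr3, Ackr4, Ccr10 and Cxcl1 passed under all 19 other settings. With library totals 5 members rose and 4 fell, beside 6373 and 1976 of all genes. In the lists, library totals gave 16 rises in signalling, 13 in NF-kB and interferon genes and 5 falls in processing genes. Heparan sulfate genes had 8 rises with library totals and 6 with upper-quartile factors, where 4749 of all genes rose. Without KO 1 and KO 4 together, chosen after seeing the data, 2 members rose and 5 fell, and 2234 of all genes rose. With 1 library left out, members higher ranged from 3 to 4 and members lower from 5 to 7, and all genes higher from 2379 to 3769 and lower from 2584 to 3930. Log2 fold changes that turned sign, none of them a call with all libraries, were those of Cxcl2 (-0.0721 to 0.91 with 1 library left out), Ccl9 (0.42 with voom, -0.96 to 0.91), Cxcl13 (-1.64 with voom, -0.40 with the replicate block, -3.41 to 1.76), Ccl27a (-0.0333 in lane 5, -0.12 without KO 1 and KO 4, -0.0526 to 0.46) and Cx3cr1 (0.00135 with library totals, 0.20 in lane 5, -0.66 to 0.0285). The cause was not tested. Shared replicate numbers did not pair the libraries: correlations of their deviations were -0.0133, 0.162 and 0.0674. With the replicate block on numbers 1 to 3, 4 members rose and 5 fell (2448 and 2607 of all genes), against 3 and 5 (2720 and 2833) in the same libraries without it. Cxcl10 passed with the block (log2 fold change 0.90, edgeR adjusted p = 0.00426), against 0.0724 in those libraries without it.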
